A study of Mus musculus with 2 samples.

Results

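The genes described here are 10 components and transcriptional targets of the YAP/TAZ-TEAD pathway, the output of Hippo signalling. They were listed by gene symbol, with earlier results of these data known: Yap1, Wwtr1, Tead1, Tead2, Lats1, Lats2, Ccn1, Ccn2, Ankrd1 and Amotl2. They were represented by 24 probe sets among the 45037 of the table, and were 10 of the 18193 genes that could be named. Signals are given in log2, and each array was given a floor at the 40th percentile of its own signals, 4.59 in lung-recovered and 4.69 in parental cells, below which a gene counts as not measured. Of the 24 probe sets, 20 read above the floor on both arrays, 1 gave only a bound and 3 were below the floor on both. Lung-recovered CMT-93-PM1 cells were compared with parental CMT-93 cells, a mouse rectal carcinoma line, to ask which genes a line recovered from lung metastases expresses differently from the line it came from. CMT-93 cells had been injected into tail veins of female C57BL/6 mice aged 6 weeks, tumours seen in the lungs after 8 weeks were taken into culture, and the resulting cells are CMT-93-PM1. Both lines were grown in the same serum-containing medium, and neither carried a further treatment or an engineered allele per the labels. Each line was profiled on 1 Affymetrix array, so no difference below has a replicate error or a test. Each value describes 1 culture, the labels do not say how many mice or tumours lie behind the lung-recovered culture, and it may hold cells of the host.

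Hippo signalling is a kinase cascade in which Lats1 and Lats2 phosphorylate the coactivators YAP (Yap1) and TAZ (Wwtr1) and keep them out of the nucleus. When the kinases are inactive, YAP and TAZ enter the nucleus and bind TEAD transcription factors, which recognise a short DNA element and switch on genes such as Ccn1, Ccn2, Ankrd1 and Amotl2. In the gut epithelium the pathway is known for its role in regeneration and in colorectal tumours. YAP and TAZ are controlled mainly as proteins, and arrays measure RNA only.

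TEAD factors bind the hexamer GGAATG, or CATTCC on the other strand. The 250 bases before the annotated start of Ccn1 and Ankrd1 are shown because these targets were among the members with higher signal in lung-recovered cells, and each holds the hexamer, printed in capitals. The sequences are those of RefSeq on GRCm38.p6, written 5′ to 3′ on the strand of the gene. Ccn1 lies on the minus strand at chr3:145649986-145650235 and Ankrd1 on the minus strand at chr19:36119845-36120094.
Ccn1: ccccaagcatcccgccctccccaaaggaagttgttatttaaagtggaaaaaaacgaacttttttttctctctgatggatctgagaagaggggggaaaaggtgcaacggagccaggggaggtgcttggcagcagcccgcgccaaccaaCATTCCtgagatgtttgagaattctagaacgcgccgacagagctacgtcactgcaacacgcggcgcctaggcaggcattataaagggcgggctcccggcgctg
Ankrd1: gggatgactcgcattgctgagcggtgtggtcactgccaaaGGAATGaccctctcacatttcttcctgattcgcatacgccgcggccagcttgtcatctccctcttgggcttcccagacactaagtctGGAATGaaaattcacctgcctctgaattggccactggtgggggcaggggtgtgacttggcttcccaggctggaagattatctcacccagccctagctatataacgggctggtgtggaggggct
The match before Ccn1 began 103 bases upstream of the start, and those before Ankrd1 began 210 and 123 bases upstream.

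Shorter stretches of 30 bases are shown for the other members with a match, Amotl2 (plus strand, chr9:102717727-102717756), Yap1 (minus strand, chr9:8004720-8004749) and Wwtr1 (minus strand, chr3:57576029-57576058), with the hexamer again in capitals.
Amotl2: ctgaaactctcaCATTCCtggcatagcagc
Yap1: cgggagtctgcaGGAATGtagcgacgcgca
Wwtr1: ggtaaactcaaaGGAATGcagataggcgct
The matches began 65 bases before the start in Amotl2, 141 in Yap1 and 136 in Wwtr1. The Wwtr1 match also lies in the window of a second annotated start, 170 bases before it. The Amotl2 window precedes a start that lies 713 bases downstream of the first base of the annotated gene.

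Both strands were searched, and 5 of 8 members with a RefSeq window held the hexamer, against 14.4% of all 27025 genes with at least 1 such window and 12.6% of all 32851 windows. Ccn1, Ankrd1 and Amotl2 are members because they are known TEAD targets, so this share describes the members and is no test. Tead2, Lats1 and Lats2 had no match, and Tead1 and Ccn2 had no window in the table used. Of 11 genes of a wider YAP/TAZ target list with a window, 3 had a match, namely Axl, Crim1 and Ptpn14. The AP-1 element TGANTCA was found before 0 of the 8 members, 1 of the 11 target list genes (F3) and 7.82% of all genes, and the CArG box, the element of serum response factor, before 0 of the 8 and 1.62% of all genes. A match describes letters in a short window, and its absence says nothing about distant enhancers, where most TEAD binding is known to occur.

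**Figure D1:**
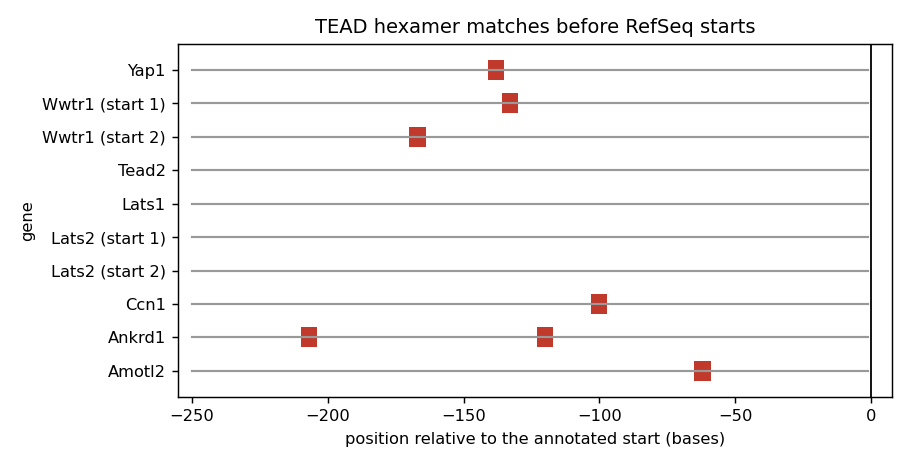
Positions of TEAD hexamer matches (red blocks) in the 250 bases before each annotated start of the members with a RefSeq window, in bases relative to the start on the x axis. Matches stand before Yap1, Wwtr1, Ccn1, Amotl2 and, as a pair, Ankrd1. The matches before both starts of Wwtr1 are the same site.

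Of the pathway's targets, Ccn1, Ankrd1, Amotl2 and Lats2 were higher in the lung-recovered line and Ccn2 was not measured, while the RNA of the coactivators was nearly level (Yap1) or moderately higher (Wwtr1). Taking for each gene its probe set of highest mean signal, Ccn1 was 2.62-fold, Amotl2 2.40-fold, Ankrd1 2.20-fold and Lats2 2.03-fold higher in lung-recovered than in parental cells. Tead1 was 1.84-fold higher, just under the 2-fold size used to count differences, and Lats2 lay just above it. These 4 genes of 9 measured members were at least 2-fold higher, where 4.42% of all 13332 measured genes were, and 0 members were at least 2-fold lower, where 2.55% of all were. The members' median log2 ratio was 0.88, beside 0.00 for all measured genes. Because the members were chosen with earlier results of these data known, such comparisons describe them and are no test. Over single probe sets, 7 of 21 measured ones were at least 2-fold higher, beside 4.04% of all measured probe sets with 1 gene symbol, and 0 were at least 2-fold lower, beside 2.78%. Of the 21, 19 had ratios above 0. The count depends on the scaling and on the probe set that stands for a gene. It was 3 genes after quantile normalization and after lowess, without Lats2, 2 genes by the median over probe sets, and 1 when those with the suffix _s, _x or _a were left out, which leaves Amotl2 without a measurement. The median ratio of the members was 0.685 and 0.40 under these choices. In bulk RNA such as this, a changed share of cells and a changed amount of RNA per cell cannot be told apart.

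**Figure D2:**
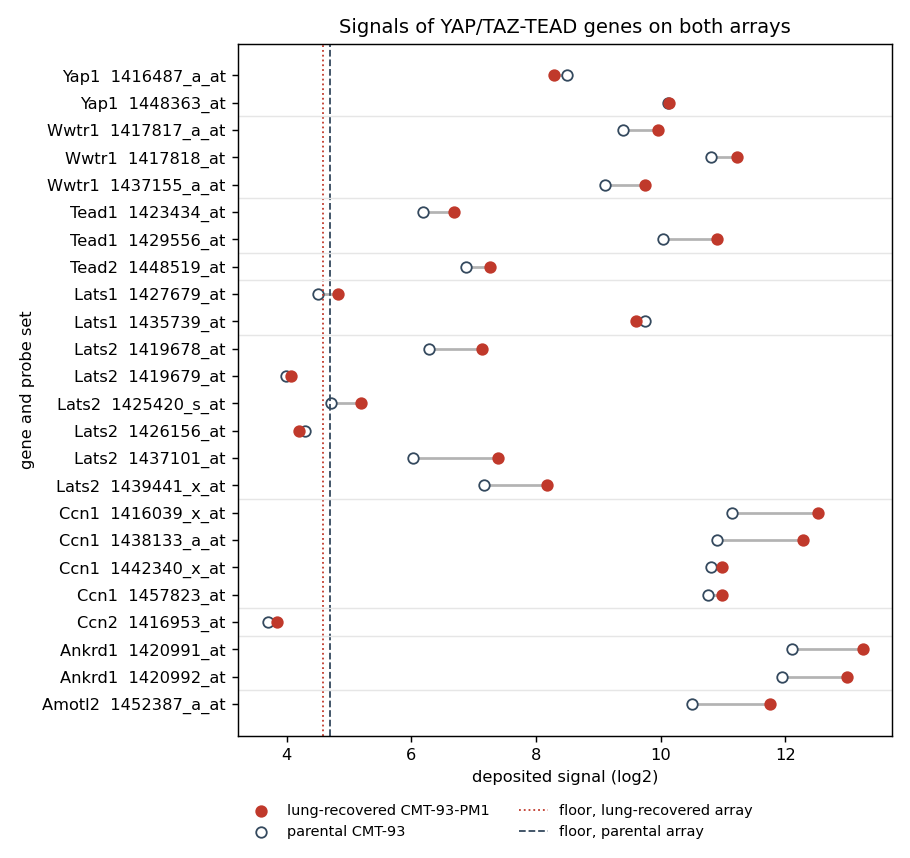
Deposited log2 signal (x axis) of each of the 24 member probe sets (rows) on the lung-recovered array (filled red) and the parental array (open), with the floor of each array as a vertical line. All 4 Ccn1, both Ankrd1 and the Amotl2 points lie further right on the lung-recovered array, Yap1 points nearly coincide, and Ccn2 lies left of both floors.

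Of the coactivators, Yap1 was nearly level and Wwtr1 was moderately higher. Yap1, which encodes YAP, read 10.13 log2 in lung-recovered and 10.11 in parental cells by probe set 1448363_at, a ratio of 0.02. Its other probe set, 1416487_a_at, read 8.28 in lung-recovered and 8.49 in parental cells, a ratio of -0.21. The Yap1 probe sets thus differed in sign, and neither ratio was large. Wwtr1, which encodes TAZ, was higher by each of its 3 probe sets. It read 11.22 in lung-recovered and 10.81 in parental cells by 1417818_at. The readings were 9.95 in lung-recovered and 9.40 in parental cells by 1417817_a_at, and 9.74 in lung-recovered and 9.11 in parental cells by 1437155_a_at. The log2 ratios were 0.41, 0.55 and 0.63, or 1.33-fold to 1.55-fold higher in lung-recovered cells, and the SD between the 3 was 0.11. Over the 5782 genes for which such an SD could be taken, from 2 or more probe sets clear of both floors, its median was 0.17. A ratio larger than that of Wwtr1 was found in 17.9% of measured genes, against 47.3% for Yap1.

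The TEAD factors bring YAP and TAZ to DNA. Tead1 read 10.91 log2 in lung-recovered and 10.03 in parental cells by 1429556_at, and 6.68 in lung-recovered and 6.19 in parental cells by the dimmer 1423434_at. These are ratios of 0.88 and 0.49, both upward, and 5.54% of measured genes exceeded the first. Tead2, a relative known mainly from embryonic tissue, has 1 probe set, which read 7.26 in lung-recovered and 6.87 in parental cells, a ratio of 0.39. The remaining family members on the array had ratios of 0.35 (Tead3) and -0.23 (Tead4), and another Tead4 probe set, 1426337_a_at, read 5.85 in lung-recovered and 6.70 in parental cells. The family did not shift in a single direction.

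The kinases Lats1 and Lats2 inactivate YAP and TAZ, and Lats2 is also a known YAP target that feeds back on the pathway. Lats1 read 9.61 log2 in lung-recovered and 9.74 in parental cells by 1435739_at, a ratio of -0.13. Its dim probe set 1427679_at read 4.83 in lung-recovered cells and was below the floor in parental cells at 4.51, which makes it at least 1.10-fold higher. Lats2 has 6 probe sets, of which 4 were measured and all 4 were higher in the lung-recovered line. By 1439441_x_at Lats2 read 8.18 in lung-recovered and 7.16 in parental cells (2.03-fold higher), and by 1437101_at 7.39 in lung-recovered and 6.02 in parental cells (2.58-fold). By 1419678_at it read 7.14 in lung-recovered and 6.28 in parental cells (1.82-fold), and by 1425420_s_at 5.19 in lung-recovered and 4.71 in parental cells (1.39-fold). The last of these was barely above the floor in parental cells. The other probe sets, 1419679_at (4.07 in lung-recovered and 3.99 in parental cells) and 1426156_at (4.19 in lung-recovered and 4.30 in parental cells), were not measured on either array. The Lats2 call at 2-fold is thus a matter of the probe set, while its upward direction held for the 4 that were measured. After quantile normalization and after lowess 1439441_x_at had ratios of 0.94 and 0.96, under the 2-fold line.

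**Figure D3:**
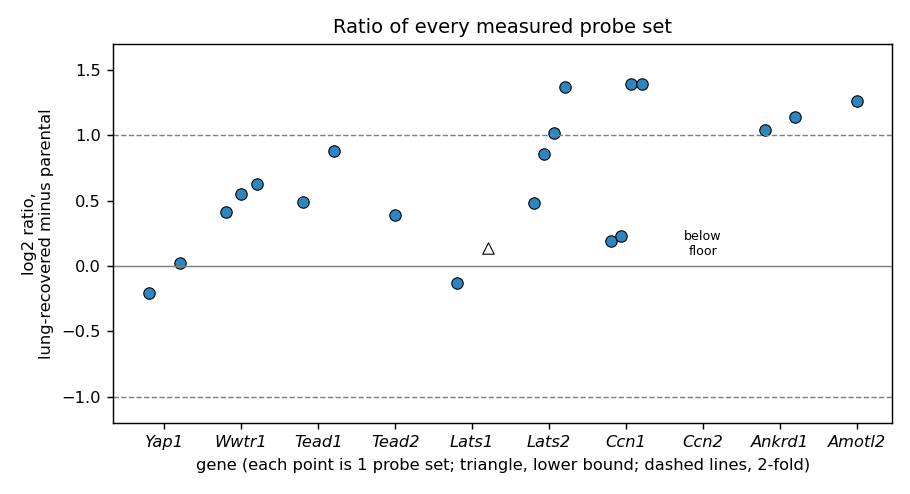
Log2 ratio of lung-recovered minus parental signal (y axis) for each measured probe set, by gene (x axis); the triangle is a lower bound and dashed lines mark 2-fold. The 4 Ccn1 probe sets fall into a pair at 1.39 and a pair at 0.19 and 0.23, while both Ankrd1 points and the Amotl2 point lie above the 2-fold line and those of Yap1 close to 0 or under it.

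Ccn1, formerly Cyr61, encodes a secreted matricellular protein that binds integrins and is among the most used readouts of YAP and TAZ activity. Its 4 probe sets gave 2 different sizes. By 1416039_x_at it read 12.53 log2 in lung-recovered and 11.14 in parental cells, and by 1438133_a_at 12.29 in lung-recovered and 10.90 in parental cells. Both ratios were 1.39, or 2.62-fold higher. By 1442340_x_at it read 10.99 in lung-recovered and 10.80 in parental cells, and by 1457823_at 10.99 in lung-recovered and 10.76 in parental cells. Those ratios were 0.19 and 0.23, or 1.14-fold and 1.17-fold higher. The platform annotation lists the flatter pair under the same sequence record and the steeper pair under separate records. On the parental array the 4 signals lay within 0.38 log2 of each other, and on the lung-recovered array they spread over 1.54. The SD of the 4 ratios was 0.68, larger than in 95.7% of those 5782 genes. All 4 were upward, and whether Ccn1 passes 2-fold rests on which pair is read. Without suffixed probe sets the gene was represented by 1457823_at, with a log2 ratio of 0.23. Where these probe sets lie in the transcript was not analysed here.

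Ankrd1 encodes a stretch-induced ankyrin repeat protein and is another standard YAP and TAZ target. Its probe sets gave nearly the same ratio. It read 13.24 log2 in lung-recovered and 12.10 in parental cells by 1420991_at, and 12.99 in lung-recovered and 11.95 in parental cells by 1420992_at. The ratios of 1.14 and 1.04 correspond to 2.20-fold and 2.06-fold higher, with an SD of 0.07 between them. Ankrd1 stayed at least 2-fold higher under all the scaling, floor and probe set alternatives tried. Amotl2, an angiomotin family protein that binds YAP at cell junctions and is itself a YAP target, read 11.76 in lung-recovered and 10.50 in parental cells by its single probe set, 1452387_a_at. That is a ratio of 1.26, and it stayed past 2-fold under those same alternatives except the one that removes its probe set. Ratios larger than that of Amotl2 were found in 2.47% of measured genes, larger than that of Ankrd1 in 3.20% and larger than that of the steeper Ccn1 probe sets in 1.96%.

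Ccn2, formerly Ctgf and the relative of Ccn1 most often measured beside it, was below the floor on both arrays. Its single probe set, 1416953_at, read 3.84 log2 in lung-recovered and 3.70 in parental cells, under floors of 4.59 for the lung-recovered and 4.69 for the parental array, so no fold is given. With 1 probe set, an absent transcript and a probe set that does not report it cannot be told apart.

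Large ratios were uncommon among bright genes. Of 2247 genes with a mean log2 signal of at least 10, a limit chosen after the values were seen, 1.74% were higher by 2-fold or more in lung-recovered cells and 1.42% were lower by that size. Ccn1, Ankrd1 and Amotl2 belonged to the 39 such genes that were higher, Ccn1 by 1416039_x_at. The equally bright-range Ccn1 probe sets 1442340_x_at and 1457823_at had ratios of 0.19 and 0.23, short of 2-fold. These shares describe the members and are no test. The members are spread over the genome. Ccn1 and Wwtr1 are on chromosome 3, Tead1 and Tead2 on chromosome 7, Yap1 and Amotl2 on chromosome 9, Lats1 and Ccn2 on chromosome 10, and the other 2-fold higher members, Ankrd1 and Lats2, on chromosomes 19 and 14.

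**Figure D4:**
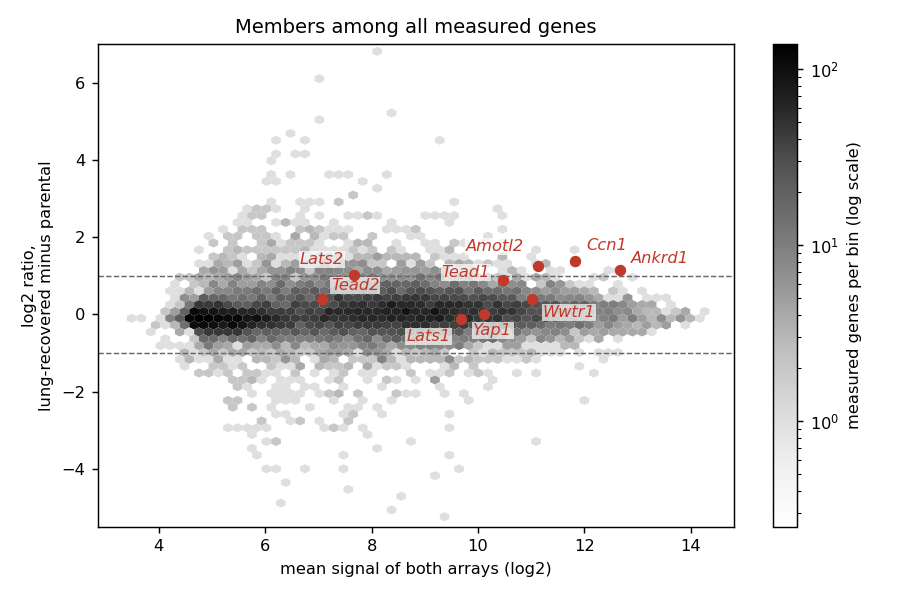
Log2 ratio of lung-recovered minus parental signal (y axis) against mean log2 signal (x axis) for all 13332 measured genes, as counts per hexagon on a log grey scale, with the 9 measured members in red; dashed lines mark 2-fold. Each gene is drawn by its probe set of highest mean signal, so the flatter Ccn1 probe sets, at 0.19 and 0.23, are not shown. Ccn1, Ankrd1 and Amotl2 sit above the 2-fold line at the bright end, where few genes do, and Yap1 and Lats1 lie close to 0.

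Other YAP and TAZ targets showed a mixed pattern. Of 17 further genes of a pan-cancer YAP/TAZ target signature, 15 were measured. Of the 15, 1 was at least 2-fold higher, a share near the 4.42% of all measured genes, and 0 were lower by that size, beside 2.55%. Ratios were above 0 for 10 and below 0 for 5, with a median of 0.40, where 6565 of all 13332 measured genes were above 0. Without suffixed probe sets the median was 0.46, beside 0.40 for the members. Nuak2, a stress-responsive kinase of the AMPK family, read 9.25 log2 in lung-recovered and 7.60 in parental cells, 3.14-fold higher. At the other end Myof, a membrane repair protein of the ferlin family, read 9.88 in lung-recovered and 10.32 in parental cells, a ratio of -0.44. Gadd45a, a stress-induced growth arrest gene, was level at 11.31 in lung-recovered and 11.26 in parental cells. At 1.5-fold or more, 6 genes of the list were higher, Nuak2 among them, beside 11.5% of all measured genes. That comparison describes the list and is no test. A group of 5 genes lay between 1.5-fold and 2-fold higher, and was named after the values were seen. They were the receptor tyrosine kinase gene Axl (0.82), the transmembrane regulator gene Crim1 (0.80, and 1.07 by its other probe set), the YAP-binding phosphatase gene Ptpn14 (0.78, but 0.37 and 0.00 by dimmer probe sets), Ccdc80 (0.78) and the tissue factor gene F3 (0.71). Igfbp3 and Tgfb2 were below the floor on both arrays. Raising the floor to the 60th percentile gave a list median of 0.71, and leaving it out gave 0.22.

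**Figure D5:**
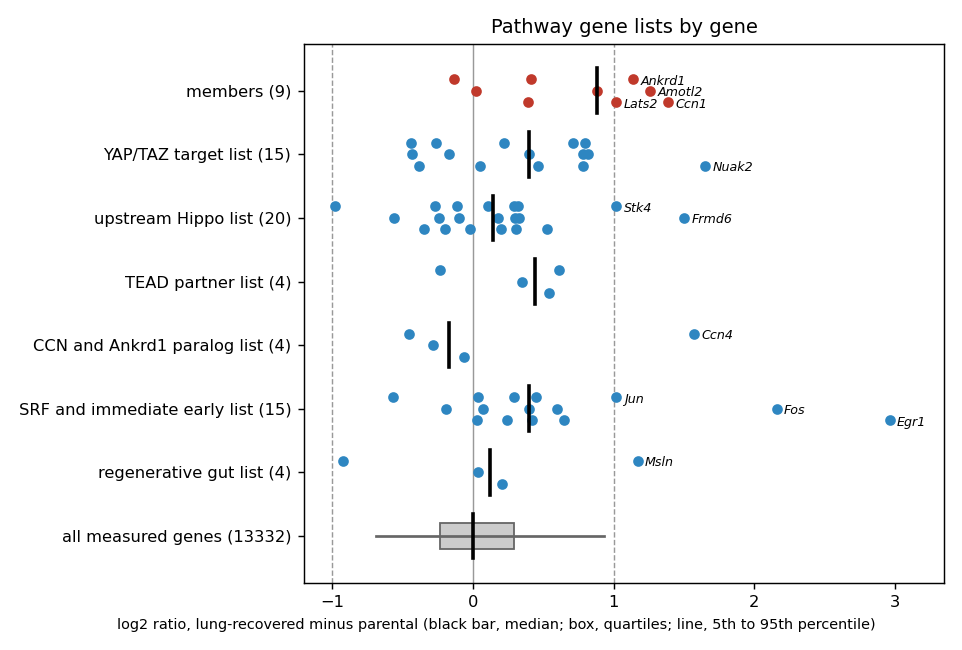
Log2 ratio of lung-recovered minus parental signal (x axis) for every measured gene of each list (rows, number measured in brackets), with the list median as a black bar and genes past 2-fold named; the bottom row gives all 13332 measured genes as quartiles and the 5th to 95th percentile. List medians as plotted run from -0.17 to 0.88 and their order depends on the probe sets and the floor. Without suffixed probe sets the members' median was 0.40, beside 0.54 for TEAD partners, 0.46 for YAP/TAZ targets and 0.41 for the serum response list, and a floor raised to the 60th percentile left 1 measured gene in the paralog list, at 1.57.

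The genes of the upstream Hippo list, which is not limited to genes acting upstream of Lats1 and Lats2, scattered around 0. Of 23 further Hippo kinases, adaptors and junctional regulators, 22 had a probe set with 1 symbol and 20 were measured, with a median of 0.15. Of the 20, 2 were at least 2-fold higher, beside 4.42% of all measured genes, and 0 lower by that size, beside 2.55%. Frmd6, a FERM-domain protein that promotes Hippo kinase activity, read 9.96 log2 in lung-recovered and 8.46 in parental cells, 2.83-fold higher. Stk4, which encodes the Hippo kinase MST1, read 12.01 in lung-recovered and 10.99 in parental cells, 2.03-fold higher, and its other probe sets gave 1.85-fold and 1.69-fold. The lowest ratio was that of Stk38l, an NDR kinase related to Lats1 and Lats2, at 8.48 in lung-recovered and 9.46 in parental cells, or -0.98, while its other probe sets gave -0.71 and -0.67. After quantile normalization Stk4 was at 0.97 and Stk38l at -1.07, each on the other side of 2-fold, and lowess gave 0.98 for Stk4 and -1.06 for Stk38l. Of the partners that bind TEADs, Vgll4, a repressor that competes with YAP, read 9.71 in lung-recovered and 9.10 in parental cells, and Vgll3 read 9.95 in lung-recovered and 9.41 in parental cells, and its remaining probe sets gave 1.55-fold and 2.08-fold. Vgll1 and Vgll2 were not measured. In the list of TEAD partners 4 of 6 genes were measured and the median was 0.45. Of the 4, 0 passed 2-fold, where 4.42% of all measured genes were higher and 2.55% lower by that size.

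Among paralogs of the targets, Ccn4, a Wnt-induced relative of Ccn1, read 9.63 log2 in lung-recovered and 8.06 in parental cells, 2.97-fold higher, and 3.23-fold by its other probe set. Ccn5 read 5.29 in lung-recovered and 5.74 in parental cells, and Ankrd2 and Ankrd23 had ratios of -0.28 and -0.06. Of this list 4 of 6 genes were measured, with Ccn3 and Ccn6 below the floor. Of the 4, 1 was at least 2-fold higher, beside 4.42% of all measured genes, and 0 lower by that size, beside 2.55%.

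Ccn1 and Ankrd1 are also induced by serum, through serum response factor and AP-1. Of 19 genes of that response, 15 were measured, with a median of 0.40. Of the 15, 3 were at least 2-fold higher, beside 4.42% of all measured genes, and 0 lower by that size, beside 2.55%. The count was 2 after quantile normalization, after lowess and by the median over probe sets, where Jun had ratios of 0.95, 0.95 and 0.92. The immediate early transcription factor gene Egr1 read 11.08 log2 in lung-recovered and 8.12 in parental cells, 7.78-fold higher. The AP-1 subunit gene Fos read 9.79 in lung-recovered and 7.63 in parental cells, 4.47-fold higher, and Jun read 10.78 in lung-recovered and 9.76 in parental cells, 2.03-fold higher and 1.77-fold by its other probe set. Ier3 had the lowest ratio, -0.57. The matrix gene Thbs1 read 11.78 in lung-recovered and 11.74 in parental cells, and Srf, which encodes the factor itself, 8.33 in lung-recovered and 8.26 in parental cells, a gene added after its value was seen. Egr1, Fos and Jun were thus higher alongside Ccn1, Ankrd1 and Amotl2, and their part in the higher signals of these targets was not tested.

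Of 11 markers listed for colorectal epithelium 9 were measured, with ratios above 0 for 7 and below 0 for 2, and a median of 0.26. Krt18 had the highest ratio, at 12.88 log2 in lung-recovered and 11.96 in parental cells. Those below 0 were Cdh1, at 12.52 in lung-recovered and 12.66 in parental cells, and the dim Cdx2, at 5.08 in lung-recovered and 5.24 in parental cells. Cdx1 and Vil1, which mark intestinal epithelium, were below the floor on both arrays. Of markers of host cell types, 4 of 9 fibroblast and mural, 3 of 6 endothelial, 3 of 6 leukocyte and 5 of 8 lung epithelial markers were measured on at least 1 array, among them Des at 6.23 in lung-recovered and 6.78 in parental cells and Sftpb at 6.32 in lung-recovered and 6.70 in parental cells. The summed linear signal of the 11, dim members included, was 37849 in lung-recovered and 29333 in parental cells. In lung-recovered cells the sums were 247 for 9 fibroblast and mural, 726 for 6 endothelial, 276 for 6 leukocyte and 262 for 8 lung epithelial markers. In parental cells they were 305 for fibroblast and mural, 491 for endothelial, 185 for leukocyte and 354 for lung epithelial markers. Markers below the floor on both arrays included Col1a1, Col3a1, Pdgfra, Pecam1, Vwf, Ptprc and Nkx2-1. The markers of these cell types past 2-fold were Cdh5, at 9.30 in lung-recovered and 4.21 in parental cells, Tek, at 3.43 in lung-recovered and 8.57 in parental cells, and Cd68, at 7.05 in lung-recovered and 5.23 in parental cells. The parental Cdh5 and lung-recovered Tek readings lay below the floor, so both ratios are bounds. Another Cdh5 probe set, 1422047_at, read 5.52 in lung-recovered and 3.98 in parental cells, at least 1.78-fold higher. The part of the host cell markers in the ratios of the members was not tested.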

How the data were processed

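Per the labels' protocols, RNA of each culture was labelled with biotin by the Affymetrix procedure from 6 µg. The deposited table holds log2 signals for 45037 probe sets. The base was read from the values, since base 2 puts the brightest signals at 19893 (lung-recovered) and 19484 (parental). MAS5 is named, without a role, in the submitters' processing notes, and no source used here gives the scaling. Quantiles of the 2 columns lay within 0.11 log2 of each other, and values were used as deposited.

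Of the probe sets, 34945 had 1 symbol in the platform annotation, and 34741 of those were updated by Entrez identifier to GRCm38.p6. The 932 with several symbols and the 9160 not listed were not named. A gene was represented by its probe set of highest mean signal. Each array was floored at its 40th percentile (4.59 in lung-recovered, 4.69 in parental). A gene below both floors was not measured, and below 1 floor has only a bound. Log2 ratios are lung-recovered minus parental, and genes were counted at 2-fold or more. By rule, the list genes named are those past 2-fold, the one of highest signal and the highest and lowest ratios. Tead3, Ankrd2, Ankrd23, Axl, Crim1, Ptpn14, Ccdc80, F3, Srf, Clu and genes below the floor were named outside this rule. Member genes and lists were chosen with earlier results of these data known. Stk3, Ly6a and Areg were not analysed here. Affymetrix suffixes mark probe sets whose probes fit several transcripts of a gene (_a), several genes (_s) or similar sequences (_x). The number of arrays limits the precision. The counting was tested on simulated data whose planted differences were all well past 2-fold, so that test does not cover genes close to the line. Python 3.11.15, pandas 2.3.3 and statsmodels 0.14.6 were used.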

Additional observations from a re-analysis of the deposited data

How the results depend on the processing

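Results were recomputed with the array medians set equal, after quantile normalization, after lowess (span 0.3), with the floor at the 20th or 60th percentile or left out, with the median over probe sets, without suffixed probe sets and at 1.5-fold in place of 2-fold. Equal medians shifted all genes by 0.10 log2. The median ratio of the member probe sets ran from 0.45 to 0.65, against 0.55 as reported, and no ratio of 2-fold or more turned round. The number of members at least 2-fold higher was 3 after quantile normalization and after lowess, 2 by the median over probe sets and 1 without suffixed probe sets, against 4 as reported. For the upstream Hippo list the number higher was 1 after quantile normalization, after lowess, by the median over probe sets and without suffixed probe sets, against 2, and the number lower was 1 after quantile normalization and lowess, against 0. For the serum response list the number higher was 2 after quantile normalization, after lowess and by the median over probe sets, against 3. At 1.5-fold, 11.5% of all measured genes were higher and 6.95% lower. At that size the upstream list had 1 lower, the TEAD partner list 1 higher, the YAP/TAZ target list 6 higher, the serum response list 5 higher and the regenerative gut list 1 lower. The cause of these moves was not tested. The 1.5-fold and median settings give no value for the median over member probe sets. No paired analysis was possible because each group has 1 array, and for the same reason no replicate could be left out.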

Other observations

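Genes known from YAP-active, fetal-like regeneration of the intestinal epithelium did not shift together. Of 8 listed genes 4 were measured, with a median log2 ratio of 0.13. Of the 4, 1 was at least 2-fold higher, beside 4.42% of all measured genes, and 0 lower by that size, beside 2.55%. The surface glycoprotein gene Msln read 11.87 log2 in lung-recovered and 10.70 in parental cells, 2.25-fold higher. The alarmin cytokine gene Il33 read 12.10 in lung-recovered and 13.02 in parental cells, a ratio of -0.92. Anxa1, an actin- and membrane-binding annexin, read 13.42 in lung-recovered and 13.21 in parental cells by 1448213_at, and 7.20 in lung-recovered and 7.53 in parental cells by the dimmer 1444016_at. Clu was level at 10.81 in lung-recovered and 10.77 in parental cells, a gene added after its value was seen, and Ereg was below the floor on both arrays.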
